A study of Mus musculus with 6 samples.

Results

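The genes examined here encode the machinery that shortens poly(A) tails, removes the cap and degrades mRNA, together with the proteins that bind or extend poly(A) tails, read the m6A mark or carry out nonsense-mediated decay. They form a list of 55 genes, taken by symbol, and all 55 were found among the 28738 gene IDs of the table. The oocytes came from mice labelled Control and from mice labelled Uba3 cKO, a conditional knockout, both on a mixed background labelled C57/Bl6/N;129SvEv7. Uba3 encodes the catalytic subunit of the NEDD8-activating enzyme. The oocytes were fully grown and at the germinal vesicle (GV) stage, when meiosis is arrested in prophase. RNA-seq was done on 3 libraries a group, with about 150 pooled oocytes per library, and the sources used here do not give the age of the mice, the driver of the deletion or the alleles of the controls. Uba3 itself was lower in every Uba3 cKO library (10.03 to 10.36) than in every control library (11.34 to 11.46, on the log2 scale of the table).

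A fully grown oocyte makes almost no new RNA, so which of its stored maternal mRNAs persist is set by decay and by the length of their poly(A) tails. The CCR4-NOT complex and PAN2-PAN3 remove the tail, DCP2 with its cofactors removes the cap, XRN1 degrades the body from its start and the RNA exosome degrades RNA from its end. At meiotic resumption BTG4 brings CCR4-NOT to maternal mRNAs, and ZFP36L2, CNOT6L, PABPN1L and YTHDF2 are among the factors known to take part in this clearance in mouse oocytes.

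Most of this machinery did not differ measurably between the groups. Of the 55 genes, 2 rose in Uba3 cKO oocytes, the decapping enzyme gene Dcp2 and the AU-rich element binder gene Zfp36l2, and 2 fell, the poly(A) polymerase gene Tent2 and the poly(A)-binding protein gene Pabpn1l. The other 51 did not pass the test, an adjusted p under 0.05 in limma over all 17450 genes tested. The share of members called was thus 7.27%, against 8.14% of all genes tested, so it was near the background. By direction, 5.64% of all genes were called higher and 2.50% lower. The median log2 difference, Uba3 cKO minus control, was 0.00 over the 55 members and -0.01 over all genes. All 55 passed the filter on low values. The 95% interval of the difference lay within 1 log2 unit of 0 for all 55 and within 0.5 for 44 of them. The narrowest interval, -0.15 to 0.11, was that of Zfp36, the gene with the lowest values. The transform of the values is not named, and one that shrinks low values would narrow the intervals of low genes. For low genes a narrow interval is thus no proof of an equal level. In RNA from pooled oocytes, a lower level in each oocyte and fewer oocytes with that RNA cannot be told apart.

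**Figure D1:**
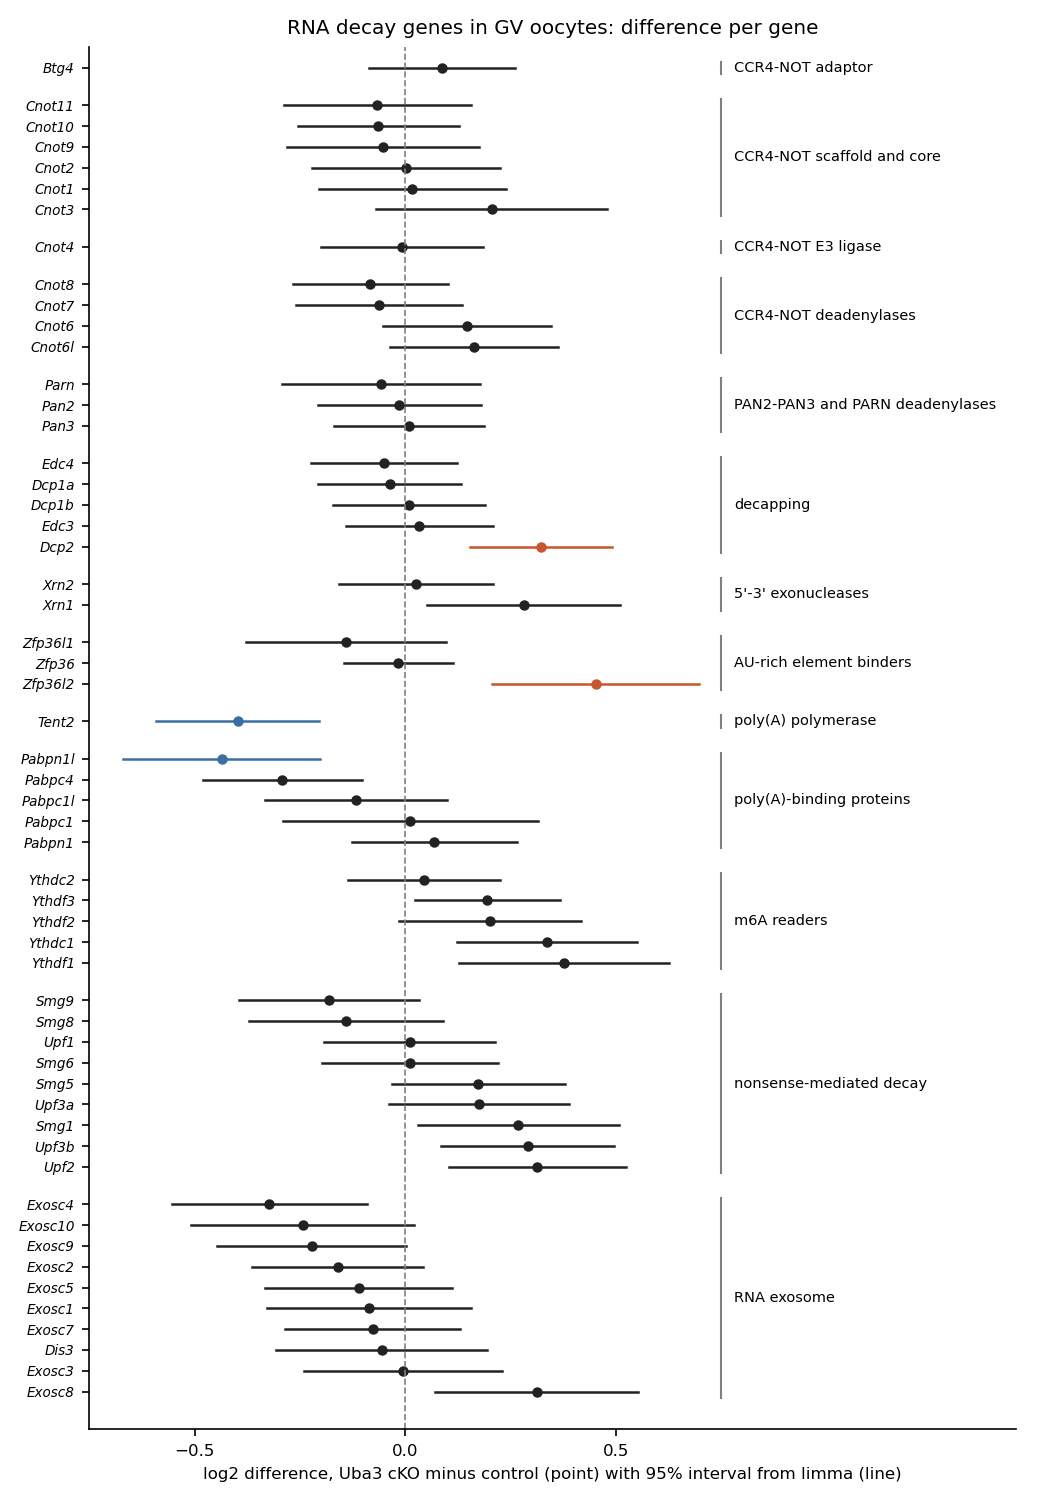
Log2 difference (Uba3 cKO minus control) of each of the 55 genes on the x axis, by role, with limma's 95% interval as a line. Coloured points are the 4 genes that passed the test: Zfp36l2 (0.45) and Dcp2 (0.32) lie above 0, Tent2 (-0.40) and Pabpn1l (-0.44) below 0.

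Levels of different genes are compared here only per kb of annotated exon, as log2 means of the control libraries. Btg4 stood highest at 14.33 per kb. Pabpn1l, an oocyte poly(A)-binding protein that partners BTG4, came next at 12.25, then the deadenylase gene Cnot7 at 11.79, the decapping scaffold gene Edc4 at 11.51, the decapping cofactor gene Dcp1a at 11.50 and Pabpc1l, the embryonic poly(A)-binding protein gene, at 11.36. At the other end stood Zfp36 (3.12), the decapping activator gene Edc3 (3.54), Dcp1b (3.56) and Pabpn1, the nuclear poly(A)-binding protein gene (4.59). Members with like roles thus stood far apart: Dcp1a against Dcp1b, and Pabpn1l against Pabpn1. Exons of Pabpn1 and Edc4 overlap another gene on the same strand, and those of Zfp36, Edc3 and Cnot7 a gene on the opposite strand. The part of these overlaps in the levels was not tested. Btg4 held 35.1% ± 1.66 (SD, n = 3) of the summed per-length linear value of the 55 genes in control libraries, against 37.4% ± 1.25 (SD, n = 3) after the knockout, and the groups overlapped (exact two-sided permutation p = 0.2).

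**Figure D2:**
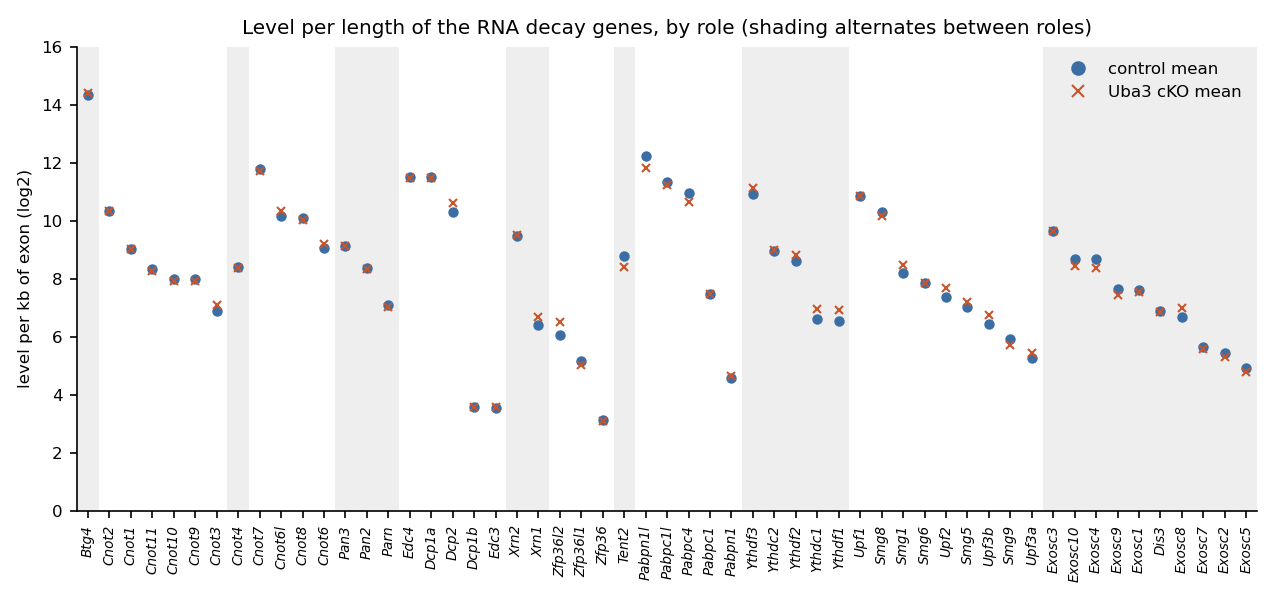
Mean level per kb of exon (log2) of each gene in control (circles) and Uba3 cKO (crosses) libraries, by role. Btg4 is highest in control at 14.33 and Zfp36 lowest at 3.12, and the 2 symbols of a gene nearly coincide for most genes.

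The promoters of the most abundant oocyte-type members are shown beside those of Pabpn1, the low-level counterpart of Pabpn1l, and of Tent2, which fell. The windows run from 250 bases before to 50 bases after the RefSeq start on GRCm38.p6, 5′ to 3′ along the gene. Capitals mark CANNTG, the E-box, whose core reads the same on both strands and which factors such as FIGLA, an oocyte helix-loop-helix protein, can bind. The positions are chr9:51115751-51116050 (plus strand) for Btg4, chr8:122622686-122622985 (minus) for Pabpn1l, chr2:164024974-164025273 (plus) for Pabpc1l, chr14:54893893-54894192 (plus) for Pabpn1 and chr13:93192368-93192667 (minus) for Tent2.
Btg4: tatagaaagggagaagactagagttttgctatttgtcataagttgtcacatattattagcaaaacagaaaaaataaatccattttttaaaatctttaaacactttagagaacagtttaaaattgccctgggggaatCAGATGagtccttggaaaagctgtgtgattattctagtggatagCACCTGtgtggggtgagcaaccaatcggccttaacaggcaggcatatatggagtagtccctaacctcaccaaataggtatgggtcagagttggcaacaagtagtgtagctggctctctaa
Pabpn1l: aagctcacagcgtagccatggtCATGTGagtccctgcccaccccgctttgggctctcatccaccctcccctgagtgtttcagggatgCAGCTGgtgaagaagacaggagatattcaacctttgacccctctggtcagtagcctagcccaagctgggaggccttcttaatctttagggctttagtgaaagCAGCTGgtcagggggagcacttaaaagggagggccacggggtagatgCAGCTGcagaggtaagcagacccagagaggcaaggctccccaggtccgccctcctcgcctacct
Pabpc1l: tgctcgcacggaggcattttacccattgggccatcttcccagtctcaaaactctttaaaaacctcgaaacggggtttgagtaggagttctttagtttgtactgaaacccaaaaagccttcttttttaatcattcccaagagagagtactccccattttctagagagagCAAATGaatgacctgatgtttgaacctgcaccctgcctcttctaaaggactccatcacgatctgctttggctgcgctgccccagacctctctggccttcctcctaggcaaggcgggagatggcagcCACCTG
Pabpn1: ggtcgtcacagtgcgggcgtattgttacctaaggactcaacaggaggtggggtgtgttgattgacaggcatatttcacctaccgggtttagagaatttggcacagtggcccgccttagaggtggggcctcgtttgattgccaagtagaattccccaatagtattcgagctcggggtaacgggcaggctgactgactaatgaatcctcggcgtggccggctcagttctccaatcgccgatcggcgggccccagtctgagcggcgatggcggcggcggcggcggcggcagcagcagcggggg
Tent2: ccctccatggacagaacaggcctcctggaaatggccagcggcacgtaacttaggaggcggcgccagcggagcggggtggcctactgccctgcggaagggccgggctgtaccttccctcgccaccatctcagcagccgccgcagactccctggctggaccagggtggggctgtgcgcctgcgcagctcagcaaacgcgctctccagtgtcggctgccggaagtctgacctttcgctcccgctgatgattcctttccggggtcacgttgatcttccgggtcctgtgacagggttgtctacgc
Btg4, Pabpn1l and Pabpc1l had 1, 5 and 7 CpG dinucleotides in these windows, against 25 for Pabpn1 and 23 for Tent2. Of the 53 windows found for 46 of the 55 members, 5 had 7 or fewer CpG: those of Btg4, Pabpn1l and Pabpc1l, 1 of the starts of Cnot2 and 1 of the starts of Cnot8. The median was 25 CpG over the member windows and 7 over all 32851 windows of the RefSeq table, of which 51.4% had 7 or fewer. Btg4 held 2 CANNTG, Pabpn1l 4, Pabpc1l 2, and Pabpn1 and Tent2 none in the window. CANNTG occurred at least 1 time in 72.3% of all windows and in 56.6% of member windows. It occurred 2 or more times in 39.6% of all windows and 4 or more times in 6.49%. A match describes the sequence and is not a measured binding site.

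Among the 15 deadenylation genes, limma called no member, and none had an unadjusted p under 0.05, against 22.8% of all genes tested. Btg4, the adaptor, had log2 values of 15.60, 15.84 and 15.61 in the control libraries, in the order of their replicate numbers as throughout, and of 15.82, 15.65 and 15.85 in the Uba3 cKO libraries. The groups overlapped, and the difference was 0.09 (95% interval -0.09 to 0.26). Cnot7, which encodes the main catalytic deadenylase of the complex, stood at 14.24, 14.54 and 14.21 in control and at 14.20, 14.24 and 14.35 in Uba3 cKO libraries, a difference of -0.06 (interval -0.26 to 0.13). Cnot6l, a deadenylase with a known role in maternal mRNA clearance, stood at 13.70, 13.44 and 13.45 in control and at 13.79, 13.73 and 13.56 in Uba3 cKO libraries. Its groups overlapped through control replicate 1, and the difference was 0.16 (interval -0.04 to 0.36). Their counterparts Cnot8 (-0.08) and Cnot6 (0.15) had differences of similar size. Over the scaffold and core subunits, differences ran from -0.07 for Cnot11 over Cnot10 (-0.06), Cnot9 (-0.05), Cnot2 (0.00) and the scaffold gene Cnot1 (0.02) to 0.20 for Cnot3, a subunit of the NOT module. Cnot4, a ubiquitin ligase associated with the complex, differed by -0.01. The other deadenylase genes Pan2 (-0.01), Pan3 (0.01) and Parn (-0.06) had intervals within 0.30 of 0.

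In decapping, 1 of 5 genes rose. Dcp2, the decapping enzyme gene (ENSMUSG00000024472), stood at 13.44, 13.48 and 13.32 in control and at 13.72, 13.70 and 13.78 in Uba3 cKO libraries. Every Uba3 cKO library lay above every control library. The means were 13.41 ± 0.09 (SD, n = 3) and 13.73 ± 0.04 (SD, n = 3), a difference of 0.32 (SE 0.08), or 1.25-fold, with an adjusted p of 0.0231 in limma. Dcp1a, its activator, stood at 14.60, 14.47 and 14.55 in control and at 14.64, 14.46 and 14.42 in Uba3 cKO libraries. Those groups overlapped, with a difference of -0.04 (interval -0.21 to 0.13). Edc4, Edc3 and Dcp1b differed by -0.05, 0.03 and 0.01. The adjusted p of Dcp2 rose above the threshold when control replicate 3 was left out (0.13), and likewise for Uba3 cKO replicate 1 (0.0919) or 3 (0.107).

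Of the 2 XRN exonuclease genes, limma called none, and 1 had an unadjusted p under 0.05, against 22.8% of all genes tested. Xrn1, the cytoplasmic enzyme, stood at 10.83, 10.46 and 10.54 in control and at 10.87, 10.94 and 10.87 in Uba3 cKO libraries. The groups did not overlap, but control replicate 1 stood close to the Uba3 cKO libraries, and the difference of 0.28 (interval 0.05 to 0.51) had an adjusted p of 0.13. Its nuclear relative Xrn2 stood between 11.43 and 11.52 in all 6 libraries, with a difference of 0.02.

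Of the 3 TTP-family genes, whose proteins bind AU-rich elements and recruit CCR4-NOT, Zfp36l2 rose. Zfp36l2 (ENSMUSG00000045817) stood at 7.93, 7.70 and 7.99 in control and at 8.38, 8.44 and 8.16 in Uba3 cKO libraries, without overlap. The means were 7.87 ± 0.15 (SD, n = 3) and 8.33 ± 0.15 (SD, n = 3), a difference of 0.45 (SE 0.11), or 1.37-fold, the largest rise among the 55 genes, with an adjusted p of 0.0272. Zfp36l1 (-0.14, from 6.74) and Zfp36 (-0.02, from 4.91) were not called. Its adjusted p rose above the threshold when control replicate 2 (0.115) or 3 (0.0545) was left out, and likewise for Uba3 cKO replicate 1 (0.102) or 2 (0.0773).

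Genes that act on the poly(A) tail itself held both falls. Tent2 (ENSMUSG00000042167), the cytoplasmic poly(A) polymerase also known as GLD2, stood at 10.91, 10.89 and 10.79 in control and at 10.48, 10.45 and 10.46 in Uba3 cKO libraries. The groups were far apart compared with their spread. The means were 10.86 ± 0.06 (SD, n = 3) and 10.46 ± 0.02 (SD, n = 3), a difference of -0.40 (SE 0.09) and a fall of 1.32-fold (adjusted p = 0.0155). Pabpn1l (ENSMUSG00000069867) stood at 12.34, 12.62 and 12.55 in control and at 12.22, 11.85 and 12.13 in Uba3 cKO libraries. Control replicate 1 and Uba3 cKO replicate 1 lay closest, and the groups did not overlap. The means were 12.50 ± 0.15 (SD, n = 3) and 12.07 ± 0.19 (SD, n = 3), a difference of -0.44 (SE 0.11), or 1.35-fold lower, with an adjusted p of 0.0258. Pabpc4, a cytoplasmic poly(A)-binding protein gene, had a difference of -0.29 without overlap and an adjusted p of 0.0568. Pabpc1l (-0.12), Pabpn1 (0.07) and Pabpc1 (0.01) overlapped. The call of Tent2 ended without Uba3 cKO replicate 1 (0.0614) or 3 (0.0557), and that of Pabpn1l without control replicate 2 (0.0954) or 3 (0.111) or Uba3 cKO replicate 2 (0.085) or 3 (0.0666).

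**Figure D3:**
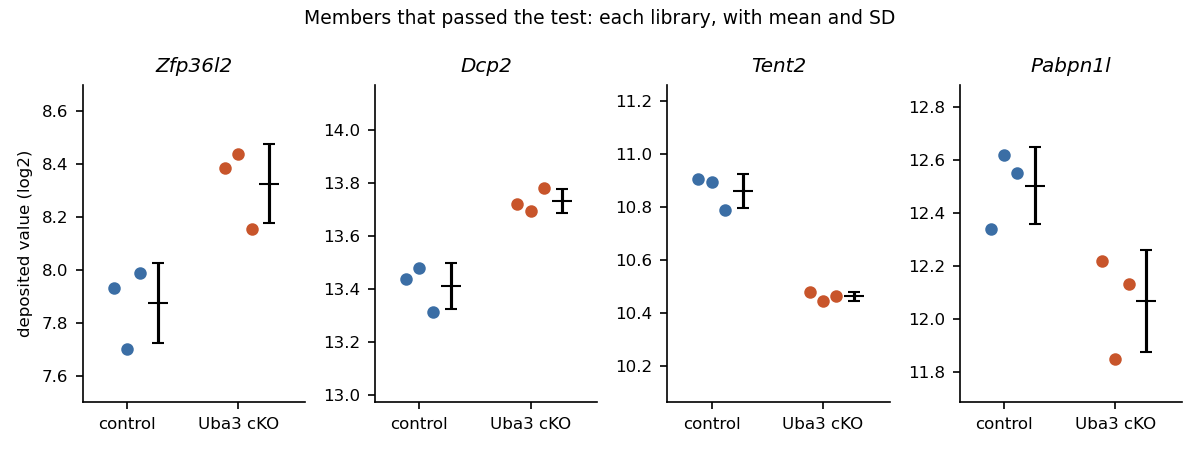
Deposited log2 value of Zfp36l2, Dcp2, Tent2 and Pabpn1l in each of the 3 control and 3 Uba3 cKO libraries (points), with the mean and SD beside them. Each y axis spans the same range of log2 units, and in no panel do the groups overlap.

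All 5 genes for m6A readers had differences above 0; none passed the test in limma and 3 had an unadjusted p under 0.05. YTH-domain proteins bind m6A, and YTHDF2 links marked mRNAs to CCR4-NOT. Ythdf2 stood at 11.00, 10.70 and 10.77 in control and at 11.00, 10.98 and 11.09 in Uba3 cKO libraries. Control replicate 1 overlapped the other group, and the difference was 0.20 (interval -0.01 to 0.42, adjusted p = 0.255). The differences were 0.38 for Ythdf1 (adjusted p = 0.0627), 0.34 for the nuclear reader gene Ythdc1 (0.0536), 0.19 for Ythdf3 (0.163) and 0.04 for Ythdc2, which encodes a helicase needed for meiosis. The groups did not overlap for Ythdf1, Ythdf3 and Ythdc1. Of all 17450 genes tested, 8416 had differences above 0, and in 27.9% the groups did not overlap. In limma 22.8% of them had an unadjusted p under 0.05. Under quantile normalization the count stayed at 5 above 0, and after a correction for transcript length and GC content it was 4.

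In nonsense-mediated decay, which removes mRNAs with premature stop codons, 7 of 9 genes had differences above 0, as had 8416 of all 17450 genes. None was called in limma, and 3 had an unadjusted p under 0.05, against 22.8% of all genes. Upf2, a core factor, stood at 9.97, 9.75 and 9.78 in control and at 10.14, 10.14 and 10.16 in Uba3 cKO libraries. The groups did not overlap, and the difference was 0.31 (adjusted p = 0.0659). Upf3b (0.29, adjusted p = 0.081), Smg1, the kinase of UPF1 (0.27, 0.164), Upf3a (0.18, 0.317) and Smg5 (0.17, 0.306) had smaller differences. Upf1, the helicase, and Smg6, the endonuclease, both differed by 0.01. Smg8 (-0.14) and Smg9 (-0.18), which encode inhibitors of SMG1, had differences below 0. The count above 0 was 5 of 9 under quantile normalization and 6 of 9 after the length and GC correction.

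For the RNA exosome, 9 of 10 genes had differences below 0, as had 9031 of all 17450 genes tested. None was called in limma, and 2 had an unadjusted p under 0.05, against 22.8% of all genes. Exosc4, a ring subunit gene, stood at 9.45, 9.77 and 9.70 in control and at 9.34, 9.36 and 9.26 in Uba3 cKO libraries. The groups did not overlap, and the difference was -0.32 (adjusted p = 0.0851). Exosc10, which encodes a nuclear catalytic subunit, differed by -0.24, Exosc9 by -0.22, Exosc2 by -0.16, and Exosc5, Exosc1, Exosc7, Exosc3 and Dis3, the other catalytic subunit gene, by between -0.11 and -0.01. The exception was Exosc8, also a ring subunit gene, at 0.31 (adjusted p = 0.112). After the length and GC correction 8 of 10 lay below 0.

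The median deviation of each group's genes from their mean over the 6 libraries was also taken per library. For the m6A reader genes it was 0.01 in control replicate 1, against -0.22 and -0.18 in control replicates 2 and 3 and 0.10 to 0.11 in the Uba3 cKO libraries. For nonsense-mediated decay it was -0.02, -0.15 and -0.06 in control and 0.03 to 0.10 in Uba3 cKO libraries. For the exosome it was 0.02 to 0.08 in control and -0.09 to -0.03 in Uba3 cKO libraries. For the poly(A)-binding protein genes it was 0.02 to 0.13 in control and -0.17 to -0.05 in Uba3 cKO libraries, and for the 2 exonuclease genes -0.17 to 0.05 and 0.06 to 0.09. Control and Uba3 cKO libraries overlapped for Btg4, Cnot4, the CCR4-NOT core, the CCR4-NOT deadenylases, PAN2-PAN3 with PARN, decapping and the AU-rich element binders, and for all 55 members together. Without control replicate 1, 7 members were called higher (Dcp2, Zfp36l2, Ythdf1, Ythdc1, Xrn1, Smg1 and Upf2) and 4 lower (Tent2, Pabpn1l, Pabpc4 and Exosc4), 20% of members against 9.38% of all genes in that fit. Without Uba3 cKO replicate 1 limma called Pabpn1l lower and no other member, 1.82% of members against 3.9% of all genes. Across the 55 genes the difference was correlated with log2 exon length (Pearson r = 0.42, Spearman rho = 0.41) and with GC content (r = -0.33, rho = -0.34). Over 17188 genes these were 0.07 and 0.08 for length and -0.17 and -0.19 for GC content. Genes share the same 6 libraries and are not independent replicates, and the part of length and GC content in the differences was not tested beyond the correction, after which r was 0.28 and -0.15 over the members.

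**Figure D4:**
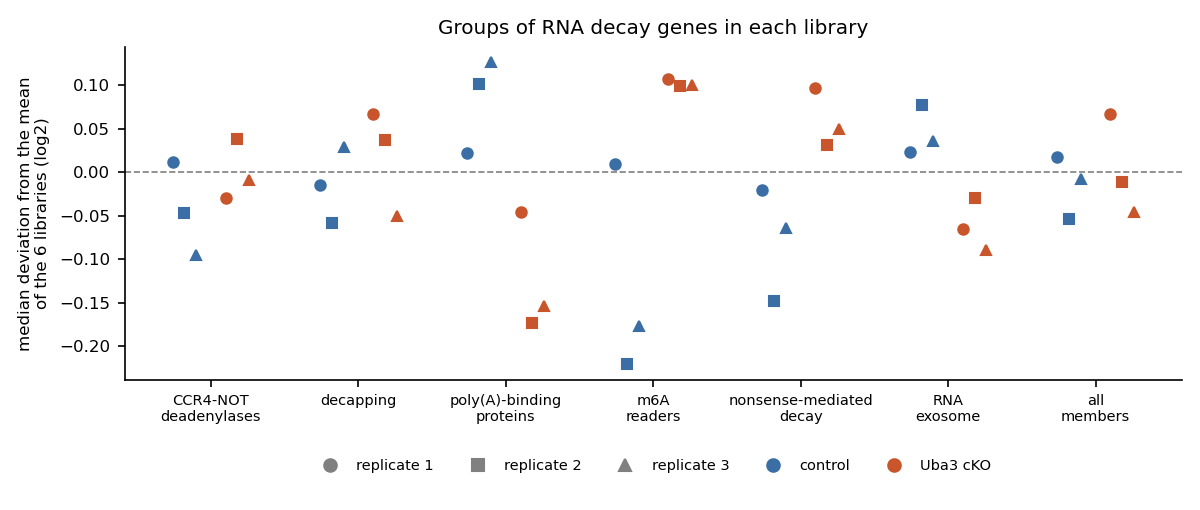
Median deviation (log2) of the genes of each group from their mean over the 6 libraries, 1 point per library, with colour for genotype and shape for replicate. The m6A readers lie at 0.10 to 0.11 in Uba3 cKO libraries, and control replicate 1 (0.01) lies nearer to them than the other controls do.

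In 20 of the 55 members (36.4%) the groups did not overlap, against 27.9% of all genes tested, and 14 (25.5%) had an unadjusted p under 0.05, against 22.8%. The balance between members with like roles was compared within each library for 7 pairs, as the log2 value of one gene minus that of the other. The Pabpn1l minus Pabpn1 value was 6.31 ± 0.22 in control and 5.81 ± 0.31 in Uba3 cKO libraries (SD, n = 3 each), a shift of -0.51 without overlap. The Xrn1 minus Xrn2 value shifted by 0.26, from -0.85 ± 0.17 to -0.60 ± 0.07 (SD, n = 3 each), also without overlap. Both had an exact two-sided permutation p of 0.1, the smallest that 3 against 3 libraries allow, and 0.35 after Benjamini-Hochberg adjustment over the 7 pairs. The groups overlapped for the other 5 pairs: Upf3b and Upf3a (0.12), Dcp1b and Dcp1a (0.04), Cnot7 and Cnot8 (0.02), Cnot6l and Cnot6 (0.02) and Pabpc1l and Pabpc1 (-0.13).

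A further list of 106 matched genes of the same pathways, of which 102 were kept by the filter, was read in the same fit. Of these 4 rose, 3 fell and 95 were not called, and their median difference was -0.01. Over all 17450 genes tested 5.64% were called higher and 2.50% lower, so these counts were near the background. Zc3h12c, which encodes a CCCH-type endoribonuclease of the Regnase family, rose most: it stood at 10.57, 10.42 and 10.59 in control and at 11.30, 11.25 and 11.24 in Uba3 cKO libraries. The difference was 0.74 (SE 0.09), or 1.67-fold, with an adjusted p of 3.013e-04, and the call held without each library in turn (adjusted p up to 0.00299). Tnrc6a, a GW182 protein that links Argonaute to CCR4-NOT, rose by 0.56 (adjusted p = 0.0133) and Larp4, whose protein binds poly(A), by 0.38 (0.0152). Zcchc7, a subunit of the nuclear exosome-adaptor complex TRAMP, fell by 0.49 (0.00605), Btg2, an antiproliferative relative of Btg4, by 0.48 (0.0142) and Skiv2l, the SKI helicase gene, by 0.37 (0.0366). The call of Zcchc7 held without each library (adjusted p up to 0.0379). Those of Tnrc6a, Larp4, Btg2 and Skiv2l ended without 1 or more of control replicates 2 and 3 and Uba3 cKO replicates 1 and 3 (adjusted p up to 0.0634, 0.0978, 0.0712 and 0.164). Skiv2l also lost its call with no filter on low values, after the length and GC correction and in both fits with the replicate number as a block (adjusted p up to 0.11), and Larp4 in the fit with the block and that correction (0.0583). Where no gene of a role was called, the most abundant per length were Lsm14b (0.06) and Lsm14a (-0.10) among decapping activators, Magoh (-0.20) and Eif4a3 (-0.10) among exon junction genes, Tent5c (-0.20) and Tent5b (-0.24) among nucleotidyltransferases and Wtap (-0.11) and Alkbh5 (0.17) among m6A writers and erasers.

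Oocyte markers were abundant in every library, and RNA of some markers of other ovarian cells was present. Those lists were uneven. Per kb in control libraries, the endothelial markers Pecam1 (8.66) and Tek (7.77) stood far above Cdh5 (2.28) and Emcn (1.55). Among granulosa and cumulus markers Inha stood at 11.86, against 3.13 for Foxl2 and 3.49 for Has2. The summed levels below weigh the abundant genes most and do not measure the amount of a cell type. The summed level of 15 oocyte markers was 19.00 to 19.14 in control and 18.82 to 18.98 in Uba3 cKO libraries (log2). Zp2 and Bmp15 were lower, Dazl was higher and 12 were not called. Under quantile normalization Zp2 (-0.14) was not called. Quantile normalization gives a gene of equal rank in every library the same value. Bmp15 had a difference of 0 there, so that setting cannot test it. Leaving out 1 library ended the call of Zp2 in 1 of 6 cases, of Bmp15 in 5 and of Dazl in 4. Other settings ended the call of Bmp15 in 7 of 13 cases, quantile normalization among them, and that of Dazl in 3. Of 14 kept theca, stroma and luteal markers all were below 0 and 7 fell (Cyp11a1, Lhcgr, Col1a2, Col3a1, Dcn, Acta2 and Nr2f2), with a summed level of 11.91 to 12.55 in control and 11.41 to 11.76 in Uba3 cKO libraries. Of 15 kept granulosa and cumulus markers, Fshr and Kitl rose and Inhba fell (14.57 to 15.04 against 14.47 to 14.71). Hbb-bs and C1qb fell among the 9 kept markers of blood and immune cells (9.26 to 9.50 against 9.13 to 9.26), and of 8 endothelial markers Tie1 fell (11.98 to 12.09 against 11.98 to 12.22). Ptx3, Tnfaip6, Tcf21, Hbb-bt, Hba-a2 and C1qa lay under the filter. Of the called markers of other cells, Col3a1, Dcn and Tie1 kept their calls under all 19 alternatives. C1qb lost its call without any 1 of the 6 libraries, Col1a2 in 5 of these cases, Lhcgr, Nr2f2, Hbb-bs, Fshr and Kitl in 4, Cyp11a1 and Acta2 in 3 and Inhba in 2. In the 13 other settings C1qb lost its call in 5 cases and Cyp11a1 in 2. Col1a2, Lhcgr, Nr2f2, Hbb-bs, Acta2 and Inhba lost theirs in 1 of these settings, and Fshr and Kitl in none. The part of these cells in the differences of Dcp2, Zfp36l2, Tent2 and Pabpn1l was not tested.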

How the data were processed

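RNA-seq of 6 pools of GV oocytes was analysed, grouped by sample title. The authors deposited 1 table of log2 values normalized between libraries; fastp, STAR, featureCounts, DESeq2 and GRCm39 are named, without versions or settings, per the submitters' processing notes. The transform is not named in the table. A regularized logarithm, if it was used, would understate changes of low genes and their spread between libraries. Ptx3, a gene under the filter, had an SD of 0.01 in control and in Uba3 cKO libraries. The filter and the levels per kb rest on the same values. Which transform was used was not tested. The table holds no read counts, so depth is unknown and counting error cannot be given.

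Symbols and exon lengths came from GENCODE M21, built on GRCm38 rather than GRCm39, so lengths are approximate. A symbol was found for 27660 of 28738 IDs. Promoters came from RefSeq (GRCm38.p6). Exons of 22 of the 55 members overlap another gene, 19 of them on the opposite strand (including Zfp36l2, Xrn1 and Exosc4). For 4 members, Cnot3, Edc4, Pabpn1 and Ythdc1, an overlap lies on the same strand. The sources used here do not give the strand setting of the counting. Reads of such genes, and of genes with close copies such as Pabpc1, are uncertain.

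Genes with a linear value of 10 or more in at least 3 libraries were kept (17450). The 2 groups were compared with limma 3.58.1 (R 4.3.3), fitted to the deposited log2 values with a variance trend over mean level. The p-values were adjusted by Benjamini-Hochberg over all kept genes. An adjusted p in the text is from this fit unless a left-out library, another setting or the test of the pairs is named. Intervals are limma's 95% intervals for 1 gene. Nothing in the labels says which animals each pool came from, and the p-values reflect only variation among these pools, which may be technical.

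The members and lists were chosen with earlier results of these data known. All members are given; values in every library are given for called members, for 9 known maternal decay factors and for genes added after their values were seen (the members Xrn1, Xrn2 as a range, Upf2 and Exosc4, and Zc3h12c of the further list). Of the further list and the markers, called genes are named, or up to 2 with the highest level per length where a role had no call; 1 called gene of the further list is not reported here. Alternatives covered the pseudocount, filter, scaling, variance model, library weights, replicate block, length and GC correction and leaving out each library.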

Additional observations from a re-analysis of the deposited data

How the results depend on the processing

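The differences of Dcp2 (0.27 to 0.36), Zfp36l2 (0.37 to 0.54), Tent2 (-0.44 to -0.37) and Pabpn1l (-0.52 to -0.33) kept their direction under all 19 alternatives. Leaving out 1 library gave 0 to 7 members called higher and 0 to 4 lower, 1 to 8 and 1 to 4 for the further decay genes, and 618 to 1637 calls over all genes (482 to 1014 higher and 136 to 623 lower). With array weights 7 members were called higher and 4 lower. Of the 102 further decay genes kept by the filter, 9 were called higher. Over all genes 2298 were called, 829 of them lower. Those 11 members are 20% of the list, against 13.2% of all genes called. Without the intensity trend 5 members were called higher and 1 lower, 10.9% of members against 7.19% of all genes (1254), and Pabpn1l had an adjusted p of 0.0583. The shifts of the pairs Cnot6l and Cnot6 (0.02) and Cnot7 and Cnot8 (0.02) became -0.0043 and -0.0311 after the length and GC correction, and leaving out 1 library gave -0.0899 to 0.0828 and -0.057 to 0.15, and -0.29 to 0.12 for Pabpc1l and Pabpc1. The cause of these changes was not tested.

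Same-numbered libraries did not deviate together (correlations of -0.09, -0.20 and -0.05). With 3 libraries a group this cannot show whether the pools were collected or processed in pairs. With the replicate block 1 member was called higher and 2 lower, Dcp2 losing its call (adjusted p = 0.0548), and 1258 genes were called in all. With the replicate block and the length and GC correction the counts were 1 and 2 members (Dcp2 0.27, adjusted p = 0.0934) and 1182 genes. The number of libraries, 3 a group, and the unknown depth limit small differences.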
